A study of Mus musculus with 10 samples.

Results

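Parvalbumin interneurons of the mouse medial prefrontal cortex were examined in 77 of 48816 single-cell transcriptomes. A cell barcode was a member when it had at least 500 detected genes and at most 15% of its UMIs (molecular barcodes that count captured RNA molecules) from mitochondrial genes, at least 2 Pvalb UMIs, and at least 2 UMIs from Gad1, Gad2 and Slc32a1 together. It also had at most 1 UMI from the excitatory genes Slc17a7 and Neurod6, under 10 Sst UMIs, under 3 Vip UMIs, and at most 1 UMI from Gja1, Cldn5 and Mog, which mark astrocytes, endothelium and oligodendrocytes. Members were thus chosen by the measured UMIs of these 11 genes and of mitochondrial genes, so the levels of the 11 genes and the mitochondrial share are a description. The libraries came from male C57BL/6N mice over 2 months old, with no genetic change or drug named in the labels. Rank 1 mice won and rank 4 mice lost in the tube test, a contest of paired mice in a narrow tube, and tissue was taken 1 day after the last test. There were 5 libraries per rank, each a pool of several mice, so the library was the replicate.

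Parvalbumin interneurons are inhibitory neurons born in the medial ganglionic eminence (MGE) of the embryo. Most are basket cells, which contact the cell bodies of pyramidal neurons, and a smaller type, the chandelier cell, contacts their axon initial segments. They fire brief spikes at high rates, which depends on Kv3 potassium channels, release GABA with little delay and carry many mitochondria. Somatostatin (Sst) interneurons share the MGE origin but contact dendrites, while interneurons with vasoactive intestinal peptide (Vip) come from the caudal ganglionic eminence and mainly contact other interneurons. Barcodes of both kinds in the same libraries, 407 of the Sst and 269 of the Vip kind by matching thresholds, served for comparison.

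The members were spread unevenly over the libraries. Rank 1 replicates 1 to 5 held 4, 3, 2, 4 and 8 members, and rank 4 replicates 1 to 5 held 1, 0, 4, 24 and 27. Thus 51 of 77 came from rank 4 replicates 4 and 5, and pooled values mainly describe those libraries. A member had a median of 4283 UMIs (range 1459 to 13460), against 3708 in Sst barcodes, 2390 in Vip barcodes and 2698 in excitatory barcodes. None of the 77 was called a doublet, and no barcode sequence was shared by members of different libraries, while 571 of the 64362 distinct sequences deposited occurred in more than 1 library. Libraries held between 4442750 and 29278466 UMIs in all.

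**Figure D1:**
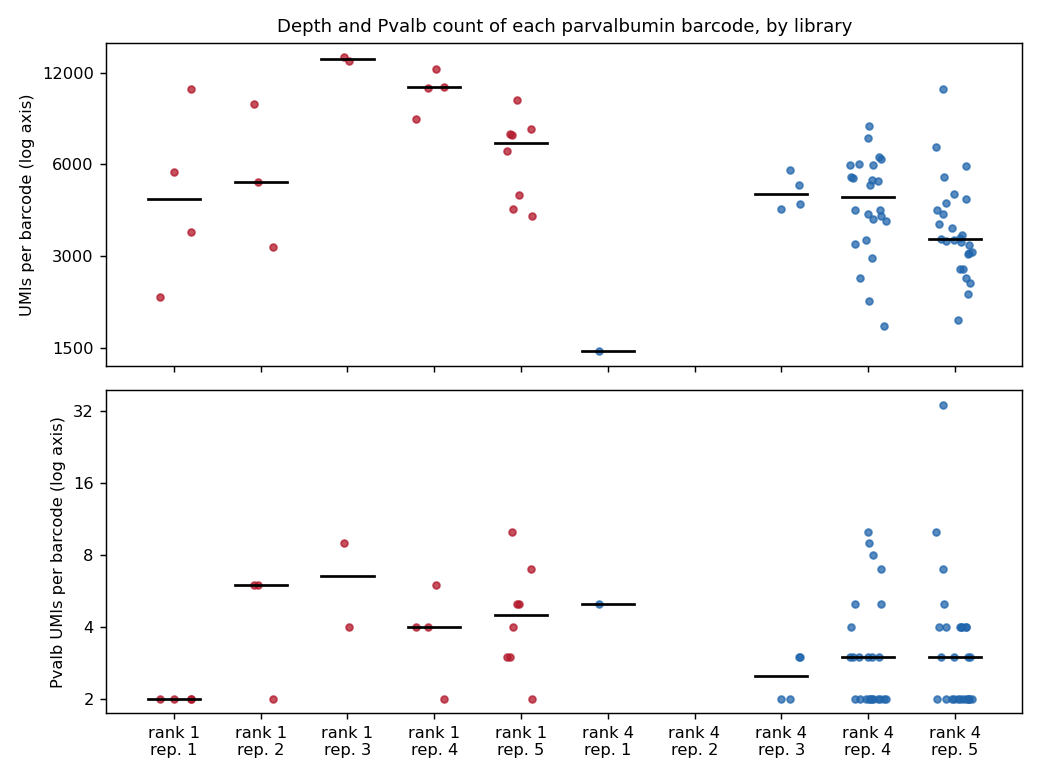
UMIs (top) and Pvalb UMIs (bottom) of each of the 77 parvalbumin barcodes, on log axes, by library, with rank 1 in red and rank 4 in blue; black bars are library medians. Rank 4 replicate 2 has no member, and 1 barcode of rank 4 replicate 5 stands above the rest with 34 Pvalb UMIs.

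Pvalb itself, the gene of the calcium-binding protein parvalbumin (chr15:78191114-78206400, minus strand, GRCm38), was sparsely counted. Of the members, 32 had exactly 2 Pvalb UMIs, 45 had at least 3 and 19 at least 5. Over all members Pvalb stood at 784 CPM (UMIs per 1000000 UMIs), against 6.17 in Sst and 5.46 in Vip barcodes. By library, Pvalb was 363, 784, 490.1, 381 and 749 CPM in rank 1 replicates 1 to 5, while rank 4 replicates 3 to 5 had 511, 782 and 1138. The lone member of rank 4 replicate 1 had 1459 UMIs, 3429 Pvalb CPM and no UMI of the potassium channel genes Kcnc1 or Kcnc2. The GABA-synthesis genes Gad1 and Gad2 stood at 1973 and 1001 CPM. Sst was at 82.6 CPM in members and 60 of 77 had no Sst UMI. Of 13581 excitatory barcodes, 1.24% carried a Pvalb UMI and of 3196 astrocyte barcodes 0.594% did, at median depths of 2698 and 1808 UMIs.

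Barcodes just outside the Pvalb threshold were similar in some markers and not in others. The 89 barcodes with 1 Pvalb UMI that met the other conditions had 816 Kcnc2 CPM and 989 Kcnc1 CPM, against 735 and 1054 in the 32 members with 2. Cnr1, a cannabinoid receptor gene of other interneurons, stood at 453 CPM just outside and 63.9 just inside. No barcode that met the other conditions was turned away by the Sst limit.

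Genes that the rule did not use were checked against the label by the share of barcodes with a UMI, beside Sst, Vip and excitatory barcodes, whose median depths of 3708, 2390 and 2698 UMIs were below the 4283 of members. Kcnc1, which encodes the fast potassium channel Kv3.1, was found in 75 of 77 members (97.4%, 95% Wilson interval 91.0 to 99.3%), and in 62.2% of Sst, 50.9% of Vip and 25.6% of excitatory barcodes. Kcnc2 (Kv3.2) was found in 68 members, and in 65.4% of Sst, 23.0% of Vip and 4.37% of excitatory barcodes. Erbb4, the receptor for neuregulin, was also found in 68, and in 31.7% of Sst, 56.1% of Vip and 1.63% of excitatory barcodes. These genes are thus shared with other interneurons. Lhx6, a transcription factor of MGE-derived interneurons, was seen in 38 members (49.4%), in 42.3% of Sst, 1.12% of Vip and 0.442% of excitatory barcodes, so its shares in members and Sst barcodes were close. Tac1, the precursor of substance P, was seen in 60 members, and in 7.13% of Sst, 2.97% of Vip and 1.75% of excitatory barcodes. Cox6a2, a cytochrome oxidase subunit, was seen in 36 members, and in 2.46% of Sst, 1.12% of Vip and 0.390% of excitatory barcodes. Syt2, a fast calcium sensor of release, was seen in 32 members, and in 0.737% of Sst, none of the Vip and 0.221% of excitatory barcodes. These intervals cover counting error only. Acan, a core protein of perineuronal nets, and the MGE factor Nkx2-1 had no UMI in any member, which allows a share of members with a UMI of up to 3.90% by 3 counts of the total and 4.75% by the Wilson interval. Neither had a UMI in Sst or Vip barcodes, and 0.265% and 0% of excitatory barcodes had one, so their absence is not particular to members. The chandelier-cell genes Unc5b, Vipr2 and Pthlh were each seen in at most 2 members.

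Counts were next summed per library and class and compared between parvalbumin and Sst barcodes of the same libraries. Rank 4 replicates 4 and 5 had at least 10 members each and gave the main comparison; edgeR called 520 of 4290 genes (12.1%), 280 higher (6.53%) and 240 lower (5.59%) in parvalbumin barcodes at an adjusted p under 0.05. A fit over the 7 libraries with at least 3 members, a limit set after the numbers of members were seen, called 420 of 1968 (21.3%), 211 higher (10.7%) and 209 lower (10.6%). Of the 520 genes, 324 were tested in the larger fit. All of these had the same direction there and 283 were called in both, although the main libraries are part of the 7. DESeq2 called 79 genes in the main comparison, and calls far below the threshold in edgeR were also lost there, so a call made by edgeR alone is less firm. Without rank 4 replicate 4 or 5 the larger fit called 245 or 240 genes. With 2 libraries the main fit has few residual degrees of freedom, so its p-values rest largely on variance estimated across genes. The SE beside a fold change is its size divided by the square root of the test's F statistic. It is not a spread between libraries. In bulk sums of a class, fewer cells with a transcript and less transcript per cell cannot be told apart. A CPM given for a class without naming a library pools all 10 libraries. The fold change beside it comes from rank 4 replicates 4 and 5, so it can differ from the ratio of the pooled values.

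Of 32 potassium channel genes 24 were tested, with 10 higher and 3 lower in parvalbumin than in Sst barcodes. Kcnc1 reached 1180 CPM in rank 1 replicate 1, then 392, 929 and 1690 in replicates 2, 4 and 5, while rank 4 replicates 3 to 5 had 869, 1147 and 1119. In Sst barcodes of the same 7 libraries Kcnc1 lay between 152 and 365 CPM, below every parvalbumin value. The log2 fold change of Kcnc1 was 1.73 ± 0.16 (SE; edgeR adjusted p = 8.39e-09) in the main comparison and 1.82 over 7 libraries. Kcnc2 was higher in 7 of 7 libraries (log2 fold change 1.24 ± 0.17, edgeR adjusted p = 3.38e-06). Kcna1, which encodes the axonal channel Kv1.1, was higher by 2.13 ± 0.28 (edgeR adjusted p = 2.04e-06) and in 7 of 7 libraries. Kcnc4, which also encodes a Kv3 channel, was instead lower, by 2.05 on the log2 scale (log2 fold change -2.05 ± 0.56, edgeR adjusted p = 0.0135; DESeq2 adjusted p = 0.951), at 12.5 against 84.2 CPM.

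**Figure D2:**
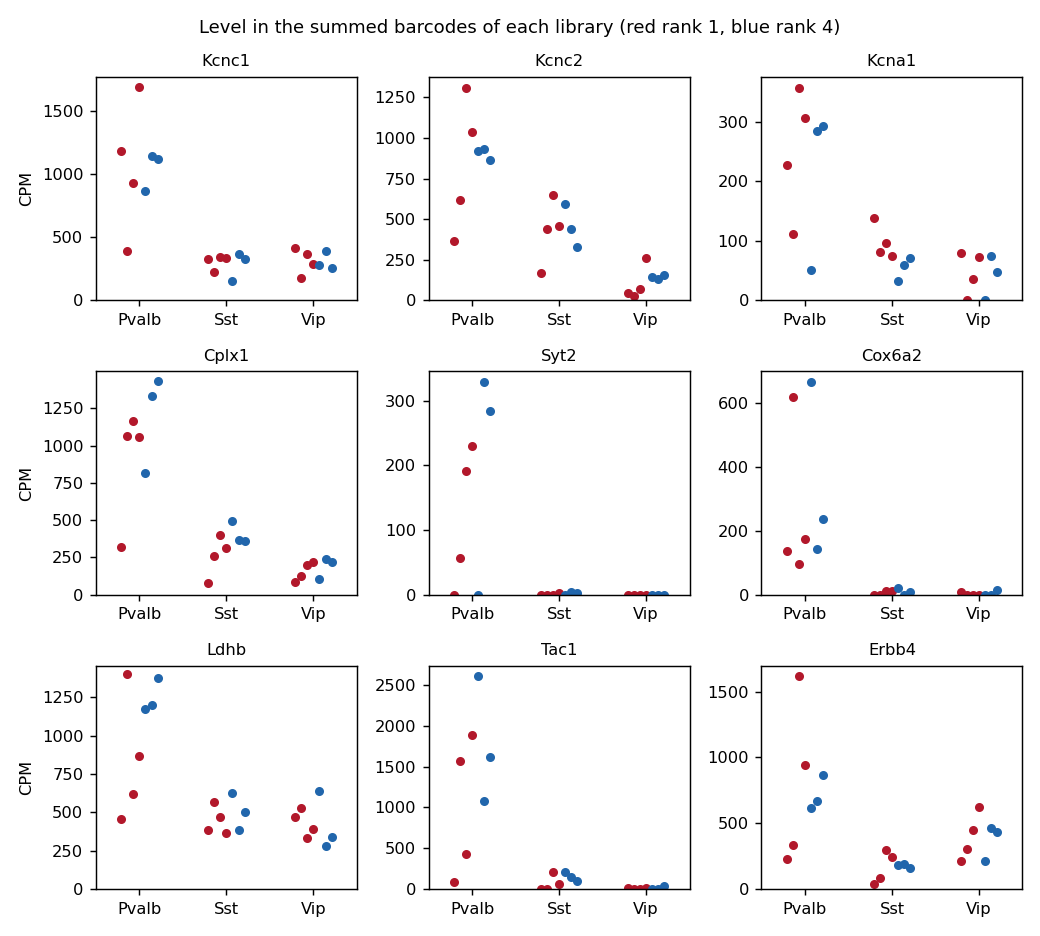
Level of 9 genes in CPM (each panel starts at 0) in the summed parvalbumin, Sst and Vip barcodes of the 7 libraries with at least 3 members; each point is a library, red for rank 1 and blue for rank 4. Kcnc1 was above 390 CPM in every parvalbumin sum and below 370 in every Sst sum, while Syt2 and Tac1 vary widely between libraries of parvalbumin barcodes.

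Sodium, calcium and pacemaker channel genes went both ways: 5 of 23 tested were higher and 5 lower. Scn1a, the sodium channel Nav1.1, was at 786 CPM against 315 in Sst barcodes and higher in 7 of 7 libraries. The log2 fold change of Scn1a was 1.29 ± 0.17 (edgeR adjusted p = 3.08e-06). Scn2a, the Nav1.2 gene, went the other way (log2 fold change -1.25 ± 0.22, edgeR adjusted p = 0.000139; lower in 7 of 7 libraries), and did not pass with DESeq2 (adjusted p = 0.142). Cacna2d3, an auxiliary calcium channel subunit, was lower by 4.06 on the log2 scale (log2 fold change -4.06 ± 0.48, edgeR adjusted p = 6.2e-07).

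Of 29 tested genes of vesicle release, 4 were higher and 9 lower, and the changed members included pairs of related proteins. Cplx1 (complexin 1) stood at 1224 CPM against 334 and Cplx2 at 90.1 against 349, with log2 fold changes of 1.93 ± 0.15 (edgeR adjusted p = 5.71e-10) and -1.82 ± 0.26 (edgeR adjusted p = 6.27e-06). Both held in 7 of 7 libraries. Syt2 was at 0, 56.0, 191 and 231 CPM in rank 1 replicates 1, 2, 4 and 5, and rank 4 replicates 3 to 5 had 0, 329 and 284. Its log2 fold change was 6.37 ± 0.51 (edgeR adjusted p = 5.71e-10), from 3 UMIs in all Sst barcodes. The groups overlap at 0, in the 2 libraries where no member had a Syt2 UMI. Vamp1 was higher by 2.35 ± 0.51 (edgeR adjusted p = 0.00184; DESeq2 adjusted p = 0.492). Unc13c, a vesicle-priming factor, had no UMI in members and was at least 14.0-fold lower than in Sst barcodes, taking 3 UMIs over all members as the floor.

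Genes of GABA handling rose in 9 of 19 tested and fell in 3. Abat, which degrades GABA, was at 365 CPM against 178 (log2 fold change 1.11 ± 0.21, edgeR adjusted p = 0.000508; DESeq2 adjusted p = 0.504). Gabra2, the alpha-2 subunit of the GABA-A receptor, had 8 UMIs in all members and 116 CPM in Sst barcodes. The log2 fold change was -2.85 ± 0.67 for Gabra2 (edgeR adjusted p = 0.00405; DESeq2 adjusted p = 0.443). Among 20 tested glutamate receptor genes 9 were lower and 1, the AMPA receptor partner Shisa9, was higher. The smallest p in this list was that of Grin3a, an NMDA receptor subunit known as a marker of Sst cells, with 6 UMIs in all members against 923 CPM in Sst barcodes (log2 fold change -6.01 ± 0.37, edgeR adjusted p = 2.69e-12).

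Genes of mitochondria and energy supply were higher in 25 of 35 tested and lower in none with edgeR over the 2 libraries, with a median log2 fold change of 0.79, beside -0.01 over all 4290 genes. Over 7 libraries, 23 of 31 were higher and 1 lower. Cox6a2, the heart and muscle form of a cytochrome oxidase subunit (chr7:128205435-128206387, minus strand, inside the span of Itgad), was found at 136, 616, 95.3 and 173 CPM in rank 1 replicates 1, 2, 4 and 5, while rank 4 replicates 3 to 5 had 664, 142 and 237. In Sst barcodes of these libraries Cox6a2 reached at most 21.6 CPM, and the log2 fold change was 5.28 ± 0.57 (edgeR adjusted p = 1.15e-07). Ppargc1a, a coactivator of mitochondrial genes, was at 273 against 74.6 CPM (2.07 ± 0.29, edgeR adjusted p = 5.68e-06), and its partner receptors Esrra and Esrrg, named after their values were seen, were called higher by edgeR (adjusted p = 0.0127 and 0.000328) and not by DESeq2. Ldhb, which converts lactate to pyruvate, was at 1094 against 432 CPM (1.55 ± 0.15, edgeR adjusted p = 2.77e-08), and Got1, a transaminase of the malate shuttle, at 866 against 342 (1.39 ± 0.17, edgeR adjusted p = 9.66e-07). Mitochondrial UMIs entered the barcode filter of both classes and can follow RNA quality, so the 12 mitochondrially encoded genes, which are not in this list, are only described: their median log2 fold change was 0.94 over 2 libraries and 0.59 over 7.

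**Figure D3:**
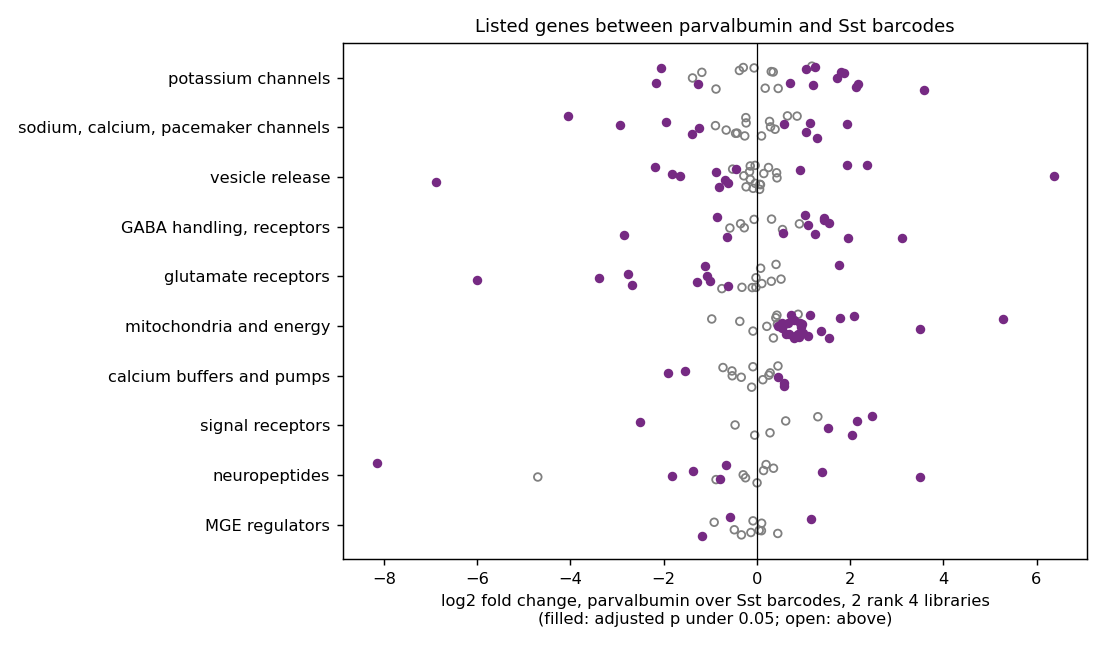
log2 fold change of each tested gene of 10 lists between parvalbumin and Sst barcodes of rank 4 replicates 4 and 5; filled points passed an adjusted p of 0.05 in edgeR. Most genes of mitochondria and energy lie right of 0, while potassium channel genes lie on both sides with 10 filled points to the right and 3 to the left; points below -6, apart from Grin3a, are genes with no UMI in members, whose position depends on the prior count.

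Of 10 tested genes of signalling receptors 4 were higher and 1, Cnr1, was lower. Erbb4 was at 806 against 178 CPM (log2 fold change 2.16 ± 0.19, edgeR adjusted p = 3.29e-09) and Ntrk3, the receptor of neurotrophin 3, at 553 against 133 (2.05 ± 0.20, edgeR adjusted p = 2.58e-08), both higher in 7 of 7 libraries. Htr2a, a serotonin receptor gene, was at 87.6 against 29.2 CPM and higher in 5 of 7 libraries (2.48 ± 0.49, edgeR adjusted p = 0.000617; DESeq2 adjusted p = 0.345). Of 12 MGE regulators tested over 2 libraries 1 was higher, Mef2c, at 1625 against 694 CPM (1.16 ± 0.14, edgeR adjusted p = 6.2e-07). Over 7 libraries 2 of 10 were higher, Mef2c and Zeb2. Satb1 and Dlx1 were lower in both fits. Lhx6 stood at 168 CPM in parvalbumin and 170.0 in Sst barcodes, with a log2 fold change of 0.10 ± 0.27 (edgeR adjusted p = 0.891). Of the perineuronal net genes 5 of 20 were tested and 1 passed, Hapln4, a link protein (2.86 ± 0.59, edgeR adjusted p = 0.00105; DESeq2 adjusted p = 0.364).

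Of 15 tested neuropeptide genes 2, Tac1 and Cck, were higher, 5 were lower and 8 did not pass. Tac1 was higher than in Sst barcodes in 7 of 7 libraries (log2 fold change 3.50 ± 0.21, edgeR adjusted p = 1.66e-12). Of 6 tested regulators and markers of caudal eminence interneurons Cck was higher and 5 were lower. Among these, Reln, the secreted protein reelin, was at 22.5 against 530.3 CPM (-5.10 ± 0.41, edgeR adjusted p = 5.71e-10). The calcium buffer Calb1 was at 293 against 828 (-1.91 ± 0.22, edgeR adjusted p = 4.43e-07). Npas1, Nr2f2 and Pdyn had no UMI in members and were at least 27.1-, 12.7- and 22.2-fold lower. Of 7 tested immediate early genes, which follow recent activity and also dissociation, Fos (25.0 against 146 CPM) and Egr1 (80.1 against 206 CPM) were lower with edgeR (adjusted p = 0.00576 and 0.0283) and none was higher; neither passed with DESeq2.

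Pooled over libraries, the markers of other cell types listed here were lower in the members than in Sst barcodes. The 16 listed excitatory genes summed to 1046 CPM in members and 1299 in Sst barcodes, the 10 astrocyte genes to 633 and 1108, and the 10 microglial genes to 223 and 300, with Cx3cr1 and P2ry12 at 0 in members. By rank, the excitatory sum ranged from 448 to 1018 CPM in the 4 rank 1 libraries and from 1022 to 1242 in the 3 rank 4 libraries. The oligodendrocyte sum ranged from 224 to 2132 and from 480.0 to 588 CPM. For the astrocyte sum the ranges were 238 to 1316 and 613 to 853 CPM, and for the microglial sum 47.6 to 726 and 124 to 341. The 10 markers of Vip and caudal eminence interneurons summed to between 0 and 318 and between 0 and 9.48 CPM. Single libraries thus varied widely, more so in rank 1. The part of all these markers in the calls is taken up next. The part of these markers in the gene differences was not tested.

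Upstream sequence is shown for Pvalb, the defining gene, and for Syt2 and Ldhb, which were higher in parvalbumin barcodes and were picked after their motif matches were seen. The table of RefSeq promoters on GRCm38.p6 gave the 250 bases before the start, on the gene's strand. Capitals mark matches, on either strand, to AAGGTCA (the estrogen-related receptor motif), the MEF2 core (CTA and TAG with 4 bases of any kind between them) or GGGCGG (the GC box); TATAAA (a core promoter box), TGACGTCA (cyclic AMP response element) and TGACTCA (AP-1 site) were searched too and had no match in these 3. Pvalb at chr15:78206401-78206650 (minus strand), Syt2 at chr1:134646362-134646611 (plus strand) and Ldhb at chr6:142507958-142508207 (minus strand) read, 5′ to 3′:
Pvalb: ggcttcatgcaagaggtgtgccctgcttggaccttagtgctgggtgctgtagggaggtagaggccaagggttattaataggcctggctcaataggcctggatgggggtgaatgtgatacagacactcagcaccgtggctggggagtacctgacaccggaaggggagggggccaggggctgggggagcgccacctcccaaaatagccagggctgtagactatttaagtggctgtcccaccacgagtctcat
Syt2: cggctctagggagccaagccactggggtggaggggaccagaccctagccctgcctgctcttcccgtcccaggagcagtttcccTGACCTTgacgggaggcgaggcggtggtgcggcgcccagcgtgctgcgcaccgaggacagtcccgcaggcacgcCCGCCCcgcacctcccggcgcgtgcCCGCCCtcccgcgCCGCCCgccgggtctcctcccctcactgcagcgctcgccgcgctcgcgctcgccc
Ldhb: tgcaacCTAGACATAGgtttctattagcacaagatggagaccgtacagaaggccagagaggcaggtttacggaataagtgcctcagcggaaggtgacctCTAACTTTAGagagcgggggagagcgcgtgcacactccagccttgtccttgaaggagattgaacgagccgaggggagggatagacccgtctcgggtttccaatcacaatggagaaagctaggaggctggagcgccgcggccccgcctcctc

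Pvalb had no match to any of the 6 motifs in this window, which says only that these letters are absent from it. Syt2 had the receptor motif 167 bases before the start and 3 GC boxes, and Ldhb had 2 MEF2 cores, 244 and 151 bases before it. Of 105 promoters of genes called higher than in Sst barcodes in both fits, 6.67% held AAGGTCA and 7.62% the MEF2 core. Of 97 promoters of genes called lower, 1.03% held each. The shares were 2.74% and 2.35% over the 3357 promoters of genes tested, and 4.08% and 3.20% over all 32851 promoters. For the other motifs the shares in higher, lower, tested and all promoters were 8.57%, 2.06%, 5.87% and 12.4% (TATAAA), 5.71%, 1.03%, 3.78% and 1.55% (TGACGTCA), 1.90%, 2.06%, 2.59% and 4.46% (TGACTCA) and 50.5%, 57.7%, 62.6% and 32.7% (GGGCGG). The tested promoters differ from all promoters in several of these shares, in both directions. These shares are descriptions and were not tested; a match is not a site in use.

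Set against Vip barcodes of the same 2 libraries, parvalbumin barcodes had 235 of 2759 genes called (8.52%), 114 higher (4.13%) and 121 lower (4.39%). DESeq2 called 59, but gave no adjusted p for 1016 of the 2759 genes. Over 7 libraries 308 of 884 were called (34.8%), 157 higher (17.8%) and 151 lower (17.1%), and 116 of the 120 main calls tested there were called in both with the same direction. Of 8 tested MGE regulators 4 were higher, none was lower and 4 did not pass: Satb1, a chromatin organiser, was at 451 against 45.1 CPM (log2 fold change 3.82, edgeR adjusted p = 0.00748) and higher in 7 of 7 libraries, and Lhx6 at 168 against 4.10 CPM (3.94, edgeR adjusted p = 0.0243). Kcnc2 was at 919 against 104 CPM and Cplx1 at 1224 against 175, both called higher and higher in 7 of 7 libraries. Syt2 had no UMI in Vip barcodes and was at least 53.8-fold higher in members. Of 9 tested regulators and markers of the caudal eminence 7 were lower, none was higher and 2 did not pass. Among those lower were Adarb2 with 4 UMIs in all members against 1279.5 CPM and Cnr1 at 52.6 against 1473 CPM. The neuropeptide gene Tac2, with no UMI in members, was at least 204-fold lower. Cck went opposite ways in the 2 comparisons, at 498 CPM in members, 211 in Sst and 3333 in Vip barcodes. The haemoglobin genes Hba-a1, Hba-a2 and Hbb-bs were also called lower than in Vip barcodes (Hbb-bs at 160.2 against 894 CPM, lower in 5 of 7 libraries), and Apoe and Clu, which astrocytes express strongly, were lower too (Apoe at 290.4 against 828 CPM). Haemoglobin belongs to red blood cells. The part of these markers in the other calls was not tested. Of 16 tested parvalbumin markers 12 were higher than in Vip barcodes and none lower, while against Sst barcodes 12 of 20 were higher, 2 (Cort and Satb1) lower and 6 did not pass. Against Vip barcodes, 9 of 32 tested genes of mitochondria and energy were higher and none lower, with medians of 3.78 for the markers and 0.90 for these genes on the log2 scale beside -0.02 over all genes.

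Members were described among themselves by genes picked after their values were seen. Tac1 was found in 60 members with up to 31 UMIs in 1, and 32 members had at least 5. By library it stood at 90.7, 1568, 429 and 1882 CPM in rank 1 replicates 1, 2, 4 and 5, at 0 in the 2 members of replicate 3, while rank 4 replicates 3 to 5 had 2606, 1075 and 1621. Npy, the gene of neuropeptide Y, had 153 UMIs in 20 members, and 63 of them came from 1 member of rank 1 replicate 1. An Npy UMI was found in 20 of 77 members, 16.1% of excitatory and 10.3% of astrocyte barcodes, at median depths of 4283, 2698 and 1808 UMIs; the part of free RNA in the Npy counts of members was not tested. Without that library Npy did not exceed 455 CPM in the other 6 libraries with at least 3 members. Calb1 was found in 36 members, Cort, a peptide gene related to Sst, in 21, and Crhbp in 30; 20 of the 21 with Cort also had Tac1. The shares of excitatory barcodes with a UMI were 1.75% for Tac1, 17.9% for Calb1, 1.08% for Cort and 0.641% for Crhbp.

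Members were also divided at each library's median share of Pvalb among a member's UMIs. The division uses the rule's own count and gives ranges, not types, and most members differ by few UMIs (32 had 2 Pvalb UMIs, 14 had 3 and 12 had 4): in rank 4 replicate 4, 7 of 24 members lay within 20% of the cut, and in replicate 5, 7 of 27. Since the members were chosen by this count, the levels on both sides are a description. Tac1 was at 514 CPM in the 12 higher-Pvalb and 1602 in the 12 lower-Pvalb members of rank 4 replicate 4, at 1049.6 against 2250.4 in the 13 and 14 of rank 4 replicate 5, and at 1281 against 2404 in the 4 and 4 members of rank 1 replicate 5. The order was the same in all 3 libraries. Syt2 stood at 551 against 121, 380.0 against 179 and 248 against 215 CPM in higher- and lower-Pvalb members of the same libraries. Over 1166 genes in rank 4 replicates 4 and 5 edgeR marked 1 (0.0858%), Tac1, and DESeq2 marked 0. Nothing is read from these counts.

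The share of parvalbumin barcodes was compared between ranks over the 10 libraries. Among kept barcodes it was 0.134% ± 0.0453 in rank 1 and 0.139% ± 0.152 in rank 4 (mean ± SD, n = 5 each). The difference, -0.00511 percentage points, was far within the spread (two-sided exact permutation p = 0.944, adjusted over 4 tests, the mitochondrial share among them, 0.952; the smallest p possible was 0.00794). Rank 4 libraries spanned 0 to 0.373% and rank 1 libraries, inside that range, 0.0813 to 0.198%. The 0 in rank 4 replicate 2, of 1740 barcodes, allows up to 0.172% by 3 counts of the total, and the exact binomial interval drawn in the plot of shares reaches 0.212%. Within replicates 1 to 3, whose matrices share a software version, rank 1 was higher by 0.0812 points (exact permutation p = 0.2), and within replicates 4 and 5 lower (-0.135 points, exact permutation p = 0.667). With 3 against 3 and 2 against 2 libraries the smallest p possible was 0.1 and 0.333. Without rank 4 replicate 4 the difference over all libraries was 0.0532 points.

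**Figure D4:**
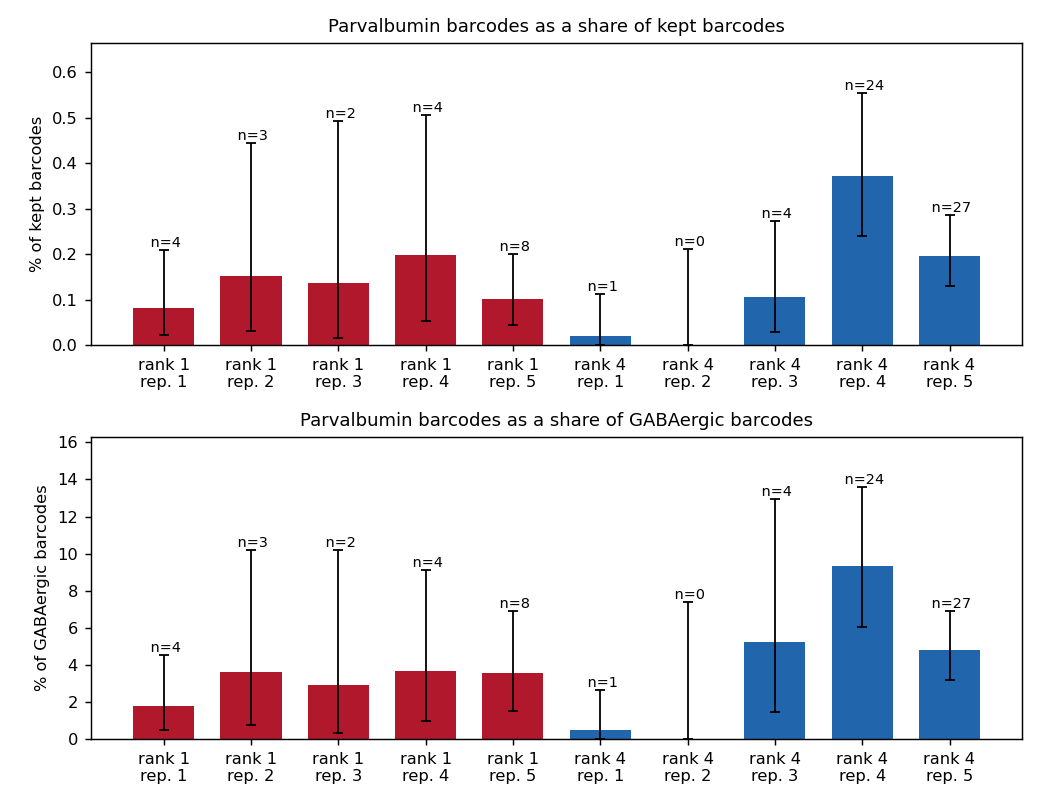
Share of parvalbumin barcodes among kept barcodes (top) and among GABAergic barcodes (bottom) in percent, by library; bars are shares, error bars exact 95% binomial intervals and n the number of members. The rank 4 libraries run from 0 to 0.373% of kept barcodes and enclose all 5 rank 1 libraries.

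Among the 1857 GABAergic barcodes the share was 3.12% ± 0.797 in rank 1 and 3.98% ± 3.84 in rank 4 (n = 5 each; difference -0.858 points, exact permutation p = 0.698, adjusted 0.952). Rank 4 replicate 4 was highest at 9.34% and rank 4 replicates 1 and 2 lowest at 0.485% and 0. Dissociated tissue loses interneurons to an unknown degree, so these are shares of captured barcodes and not of neurons in the tissue.

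The median UMIs of members were 4622, 5236, 13274.5, 10725.5 and 7073 in rank 1 replicates 1 to 5, against 1459, 4792, 4693 and 3408 in rank 4 replicates 1, 3, 4 and 5. The means were 8186 ± 3708 (n = 5) and 3588 ± 1553 (n = 4), the ranges overlapped slightly, and the exact permutation p was 0.0476 (adjusted 0.190). Sst barcodes had medians of 5505, 3755, 5868, 6729 and 4270.5 UMIs in rank 1 and 5774, 4894, 3498, 3657 and 2868.5 in rank 4 replicates 1 to 5, higher in rank 1 in replicates 3 to 5 and lower in replicates 1 and 2. With the replicates paired, 4 of 4 pairs were higher in rank 1, and the p was 0.125, the smallest that 4 pairs allow (exact sign-flip permutation). The median share of mitochondrial UMIs, which the rule limits to 15%, was 8.21% ± 2.05 (n = 5) in rank 1 and 8.40% ± 2.47 (n = 4) in rank 4.

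Expression in members was then compared between ranks, in rank 1 replicates 1, 2, 4 and 5 against rank 4 replicates 3 to 5, with the software version as a term. No rank 1 library reached 10 members, so the limit of 3 was used. In edgeR 0 of 815 genes passed (0%), 51 at an unadjusted p under 0.05; DESeq2 gave 0 and 24. The gene with the smallest p was Ndufa11, a subunit of respiratory complex I, lower in rank 1 (log2 fold change -1.50 ± 0.38, edgeR adjusted p = 0.251). Ndufa11 was at 181, 560.1, 167 and 231 CPM in the rank 1 libraries and at 1227, 427 and 740 in the rank 4 libraries, so the groups overlapped. The serine protease inhibitor gene Serpini1 (1.14 ± 0.35) and Ndufb2 (-1.29 ± 0.39) each had an edgeR adjusted p of 0.387. Serpini1 and Ndufa11 passed when rank 1 replicate 1 was left out (edgeR adjusted p = 0.0415 for both; 3 genes passed in all) and under the stricter barcode filter, which left 2 rank 1 libraries (8 genes in all). Neither passed in the other settings run.

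Of the 10 genes with the smallest p, Ndufa11 and Ndufb2 belong to oxidative phosphorylation, and its nuclear genes, taken by symbol after these values were seen, were looked at as a group. Of 58 tested 54 were lower in rank 1, beside 405 of all 815 genes, with a median log2 fold change of -0.57 beside 0.00 over all genes. In edgeR 14 had an unadjusted p under 0.05, beside 51 of 815, and 0 passed after adjustment. Within replicates 1 to 3, with replicate 3 alone in rank 4, 38 of 57 were lower. Within replicates 4 and 5, 65 of 69 were lower. Without the software version in the fit, 48 were lower, the median was -0.38 and 1 had an unadjusted p under 0.05. Summed over 96 such genes, the level was 26811, 56791, 18580.3 and 18246 CPM in rank 1 replicates 1, 2, 4 and 5 while rank 4 replicates 3 to 5 had 57648, 26415 and 33668. The ranks overlapped. Libraries high in members were also high in other classes: Sst barcodes of rank 4 replicate 3 were at 31132 CPM and excitatory barcodes at 34313, against 16758 and 16234 in rank 1 replicate 5. The median over these genes of the rank difference in members minus that in Sst barcodes was -0.05, from 70 genes with 0 called.

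**Figure D5:**
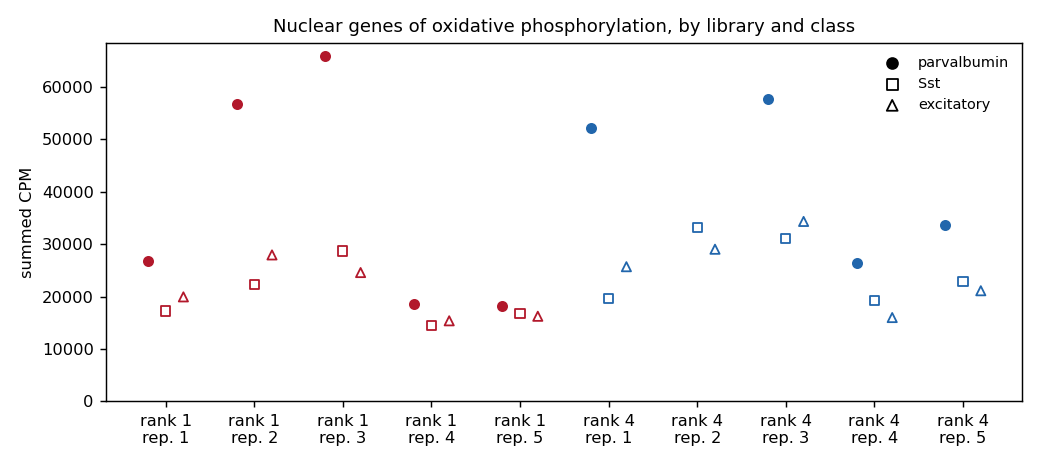
Summed CPM of 96 nuclear genes of oxidative phosphorylation in parvalbumin (filled circles), Sst (open squares) and excitatory (open triangles) barcodes of each library, red for rank 1 and blue for rank 4. Members lie above Sst barcodes in each of the 9 libraries with a member, and replicates 2 and 3 are higher than replicates 4 and 5 of the same rank in each class that has a value (rank 4 replicate 2 has no member).

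A test of whether the rank difference itself differed between parvalbumin and Sst barcodes called 0 of 1968 genes (0%) in edgeR, 55 at an unadjusted p under 0.05, and DESeq2 gave 0 and 19. Of the 25 parvalbumin marker genes 9 were tested between ranks and 0 passed, and of 32 potassium channel genes 7 were tested and 0 passed.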

How the data were processed

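The authors' deposited files held, per library, barcodes, genes and raw UMI counts per gene and barcode on mm10; the submitters' processing notes name Cell Ranger 4.0.0, while the file headers give version 3.1.0 for replicates 1 to 3 and 4.0.0 for replicates 4 and 5 of both ranks. The 30406 gene identifiers shared by both versions were used. The members and gene lists were chosen with earlier results of these data known. Counts were summed per library and class and tested with edgeR 4.0.16 (quasi-likelihood, TMM, Benjamini-Hochberg over all genes tested), after checking the scripts on simulated data; the 11 genes of the rule were left out. Class comparisons had the library as a block; rank comparisons had the software version as a term. DESeq2 1.42.0 was an alternative. Shares and medians over libraries were tested by exact permutation with scipy 1.17.1. Doublets were called with Scrublet in scanpy 1.11.5; in replicate 1 of both ranks it called 0 and the median threshold of the others, a score of 0.247, was applied. Other alternatives were other barcode filters, at least 5 Pvalb UMIs, under 3 Sst UMIs, thinning to 1500 UMIs, other scalings, no filter on low counts and leaving out each library. CPM values are UMI sums of a class per 1000000 UMIs and are not scaled by gene length. They refer to a library where one is named, and otherwise to all 10 libraries pooled. Fold changes come only from the libraries of their fit, so they can differ from the ratio of pooled values.

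The planned limit of 10 members per library left 2 libraries for the class comparisons and none of rank 1, so fits with at least 3 members were added after the numbers were seen. Where ranks were paired, this was by replicate number alone. Deviations of same-numbered libraries from their rank means had a Pearson r over 1669 genes of 0.162, 0.333, 0.519 and 0.452 in replicates 1, 3, 4 and 5. Libraries with different numbers were not compared in this way, and the software version also differs between replicates 1 to 3 and 4 and 5. Pairing and version thus cannot be told apart here. Rank 4 replicate 1 had 1 member. Named genes were, per list, up to 4 per direction with the smallest p among those passing, over all genes up to 10 per direction, the 10 smallest p between ranks, and the markers; other listed genes are named with their levels or calls. Positions are from GENCODE M21 on GRCm38, the build mm10 names, which held 30329 of the 30406 identifiers. The counting is not stated to use strand, and 67 of 132 named genes overlap another gene. Some genes are not reported here.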

Additional observations from a re-analysis of the deposited data

Results flagged for a closer look

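In parvalbumin barcodes, Cox6a2 in rank 1 replicate 2 stood at 616 CPM, far above the other 3 rank 1 libraries with at least 3 members. That sum came from 3 members with 17874 UMIs in all, and Cox6a2 in rank 4 replicate 3 stood higher still. Npy in rank 1 replicate 1 stood at 3539 CPM, where 1 member supplied most UMIs. Chance alone marks about 5% of such groups, and 16 groups were looked at, with the genes among them picked after their values were seen. Among kept barcodes, rank 1 had the higher share of parvalbumin barcodes in all of replicates 1 to 3 (mean difference 0.0812 percentage points) and the lower share in both of replicates 4 and 5 (-0.135 points). The difference between these replicate sets was not tested.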

How the results depend on the processing

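The share of kept barcodes (rank 1 minus rank 4, -0.00511 percentage points) turned positive with at least 5 Pvalb UMIs (0.0256), under 3 Sst UMIs (0.00159) and within replicates 1 to 3 (0.0812), and ranged from -0.0399 to 0.0532 with each library left out. It was more negative after thinning to 1500 UMIs before the rule (-0.0741; 0.0587% against 0.133%) and under the stricter barcode filter (-0.0572). It was positive without rank 1 replicate 1 (0.00806) or 5 (0.00291) and without rank 4 replicate 4 (0.0532) or 5 (0.0092). The share of GABAergic barcodes (-0.858) turned positive with at least 5 Pvalb UMIs (0.611) and within replicates 1 to 3 (0.867). With each library left out it ranged from -1.85 to 0.482, the latter without rank 4 replicate 4. It was more negative within replicates 4 and 5 (-3.45), with up to 30% mitochondrial UMIs (-1.35) and under the stricter filter (-1.08). In no setting did either share differ between ranks at p under 0.05. With the replicate block the exact sign-flip p was 0.9375 for kept and 0.6875 for GABAergic barcodes. The difference in median UMIs per member ranged from 3326 to 5489 with each library left out, was 4585 within replicates 1 to 3, 4849 within replicates 4 and 5 and 5336 with the replicate block, and its p passed 0.05 only as reported and without rank 1 replicate 1. The difference in mitochondrial share ranged from -1.20 to 0.518 with each library left out, was -1.21 within replicates 1 to 3, 1.04 within replicates 4 and 5 and 0.239 with the block, and was positive without rank 1 replicate 2, 3 or 4 (0.239, 0.17, 0.102) or rank 4 replicate 1 or 4 (0.518, 0.432). The causes were not tested.

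Genes called against Sst barcodes numbered 274 under the stricter barcode filter, 206 after thinning and 79 with DESeq2. Over 7 libraries they numbered 95 after thinning, 807 without a filter on low counts, 94 in rank 1 libraries alone and from 240 to 486 with each library left out. Against Vip barcodes 642 were called with up to 30% mitochondrial UMIs, 371 without doublets, 531 with under 3 Sst UMIs, 458 without a filter on low counts and 59 with DESeq2; over 7 libraries 697 without that filter and 104 in rank 1 libraries alone, and from 207 to 353 with each library left out. Between higher- and lower-Pvalb members, given as a description, 3 genes were called with up to 30% mitochondrial UMIs and 0 with under 3 Sst UMIs or DESeq2. Over 3 libraries it was 2 with under 3 Sst UMIs, 0 under both other barcode filters, after thinning and with DESeq2, and from 0 to 1 with each library left out. Between ranks 8 genes were called under the stricter filter and from 0 to 3 with each library left out, and the replicate block called 0. With at least 5 Pvalb UMIs, the test of rank differences between classes had 1 rank 1 library, replicate 5 with 4 members. There the rank difference of Tac1 in members minus that in Sst barcodes was 2.58 on the log2 scale. With a single rank 1 library no call is read from it. For 33 genes of the Sst comparison, picked from those named after their values were seen, 301 of 313 alternative values kept direction and call, 12 lost the call and 0 changed direction. Leaving out a library of the 2-library fits gives no residual degrees of freedom, and the rank comparison could not be fitted at 10 or 20 members; class fits with at least 5 Pvalb UMIs and 10 members, and the divisions by Pvalb after thinning or stricter filtering in 2 libraries, gave no value.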
